A study of Mus musculus with 6 samples.

Results

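Slc25a31, Cyct and Aurkc are the testis copies of 3 gene families whose somatic copies work in most cells, Slc25a4 and Slc25a5 for the ADP/ATP carriers, Cycs for cytochrome c, and Aurka and Aurkb for the Aurora kinases. These 8 genes, of 18193 genes with a probe set of their own, were taken by exact gene symbol from the platform annotation, and all 8 were found, on 23 probe sets. The 3 testis copies were chosen by their lower values in the knockout than in the parental arrays of these same data, so that difference is given as a description with no test. The somatic copies were added as relatives of those genes.

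The samples were mouse embryonic stem (ES) cells grown on mouse embryonic fibroblast feeder cells, 3 arrays of the Dppa4 knockout line (CI#243.12) and 3 of the parental line (CI#84.2). The parental line is hemizygous for Dppa4, so neither group has the gene in its normal dose, and each group is a single cell line. The labels do not say that replicates came from separate cultures, so the errors cover the spread of these 6 samples alone and may be purely technical. Values are log2 expression values per probe set, normalised together by RMA, and every change is knockout minus parental on that scale. Dppa4 (1429597_at) read 8.68, 8.84 and 8.68 in knockout samples, against 10.30, 10.35 and 10.45 in parental samples; whether the probe set lies inside the deleted part is not known here. It was lower on every knockout array than on any parental array.

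ADP/ATP carriers sit in the inner mitochondrial membrane and swap cytosolic ADP for newly made ATP. Cytochrome c carries electrons between respiratory complexes and, once released into the cytosol, starts the apoptosome. Aurora kinases drive spindle assembly and chromosome segregation, in mitosis for Aurka and Aurkb and mainly in meiosis for Aurkc. In the mouse, the testis copies serve developing male germ cells, in which X-linked genes such as Slc25a5 are silenced during meiosis.

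Promoter windows from RefSeq (GRCm38.p6) matched 7 of the 8 genes, each covering 250 bases before and 50 bases after the annotated start. The parts before the start of the 3 testis copies, and of Cycs as the somatic counterpart of Cyct, are shown because the testis copies were low together in the knockout arrays while the Cycs probe sets differed little. Capitals mark matches to TCCCGC (a core motif of E2F factors, E2F6 among them), CACGTG (the E-box), GCATGCGC (NRF1), TGACGTCA (the cAMP response element) and CCAAT (the CCAAT box). Each motif was searched on both strands, positions are counted from -1 at the last base before the start, and the motifs were chosen with these sequences in view.
Slc25a31, chr3:40708621-40708870, plus strand: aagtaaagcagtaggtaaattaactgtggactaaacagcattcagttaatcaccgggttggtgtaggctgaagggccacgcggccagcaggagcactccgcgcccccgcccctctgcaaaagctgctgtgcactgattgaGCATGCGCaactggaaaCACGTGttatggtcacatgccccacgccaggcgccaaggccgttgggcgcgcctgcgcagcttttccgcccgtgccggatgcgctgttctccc
Cyct, chr2:76360454-76360703, minus strand: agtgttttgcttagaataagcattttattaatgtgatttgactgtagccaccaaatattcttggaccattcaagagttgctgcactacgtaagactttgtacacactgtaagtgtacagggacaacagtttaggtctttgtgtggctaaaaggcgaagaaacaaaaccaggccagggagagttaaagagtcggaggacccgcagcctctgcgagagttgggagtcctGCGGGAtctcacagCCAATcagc
Aurkc, chr7:6995135-6995384, plus strand: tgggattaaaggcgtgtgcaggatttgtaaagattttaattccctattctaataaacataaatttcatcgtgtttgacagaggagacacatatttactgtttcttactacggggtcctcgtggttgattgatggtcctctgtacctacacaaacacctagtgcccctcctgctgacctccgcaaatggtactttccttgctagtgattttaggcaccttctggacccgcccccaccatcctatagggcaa
Cycs, chr6:50566570-50566819, minus strand: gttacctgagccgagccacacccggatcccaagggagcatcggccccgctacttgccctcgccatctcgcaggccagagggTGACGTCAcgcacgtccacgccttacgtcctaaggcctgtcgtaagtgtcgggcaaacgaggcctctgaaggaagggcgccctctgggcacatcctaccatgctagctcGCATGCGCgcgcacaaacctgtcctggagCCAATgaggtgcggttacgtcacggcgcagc

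The Slc25a31 promoter differed in base composition from those of Cyct and Aurkc, which were similar. The Slc25a31 window held 22 CpG dinucleotides at 59.7% G and C, the Cyct window 8 at 48.3% and the Aurkc window 6 at 46.0%, where the median of 32851 windows was 7 CpG at 52.7%. The somatic windows held 32 CpG in Cycs, 25 in Slc25a4, 24 in Aurka and 18 in Slc25a5. Cyct thus had fewer CpG than Cycs, Aurkc fewer than Aurka, and Slc25a31 fewer than Slc25a4 but more than Slc25a5. Aurkb is the gene without a window.

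Motif matches were not shared by all 3 testis copies. TCCCGC stood on the reverse strand at -23 to -18 in Cyct and after the start of Slc25a31, at 21 to 26, in gcccgcttTCCCGCcagggtaa (chr3:40708883-40708904, plus strand). It also stood at -82 to -77 in Slc25a5, a somatic copy, and 20.0% of all windows hold it. Aurkc had no match to 4 of the 5 motifs, and its only match was CCAAT on the reverse strand at 25 to 29, after the start. CACGTG was found in Slc25a31 alone among the 7 windows and in 7.15% of all windows. GCATGCGC, the NRF1 sequence, was found in both Slc25a31 and Cycs and in 2.71% of all windows. TGACGTCA was found in Cycs and in 1.79% of all windows. CCAAT was found in Cyct, Aurkc, Cycs, Slc25a4 and Aurka, and in 37.4% of all windows. No match overlapped another, and a match of letters is not evidence of binding.

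All 3 testis copies read lower on every knockout array than on any parental array, and all 3 were dim. The background level used here, 3.78, is the 95th percentile of the mean values of 80 probe sets for olfactory or vomeronasal receptors, genes not expected in ES cells. Slc25a31 and Cyct lay below it on all 3 knockout arrays, so their folds are bounds that depend on this level. At the 90th percentile (3.66) both were above background on 0 of 3 knockout and 3 of 3 parental arrays. At the 99th (4.90) they were above it on 0 arrays of either group, so that no bound remains, and Aurkc was above it on 0 of 3 knockout and 2 of 3 parental arrays. In bulk samples such as these, fewer cells that express a gene and less RNA per cell cannot be told apart.

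Slc25a31 (probe set 1453133_at), the testis ADP/ATP carrier, read 2.76, 2.62 and 2.55 in knockout samples 1, 2 and 3, against 3.78, 4.06 and 4.13 in parental samples 1, 2 and 3. It was above background on 0 of 3 knockout arrays and 2 of 3 parental arrays, parental sample 1 lying at the level itself. The means were 2.64 ± 0.11 in knockout and 3.99 ± 0.19 in parental samples (SD, n = 3), a change of -1.35 (SE 0.11). Against the background level, this is at least 1.15-fold lower in knockout cells.

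Cyct (1450752_at), the testis cytochrome c, read 3.15, 3.43 and 3.13 in knockout samples, against 4.30, 4.21 and 4.75 in parental samples. Every knockout array was below the level of 3.78 and every parental array above it. The means were 3.24 ± 0.17 in knockout and 4.42 ± 0.29 in parental samples (SD, n = 3), a change of -1.18 (SE 0.15) and at least 1.55-fold lower in knockout cells.

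Aurkc (1449364_at), the meiotic Aurora kinase, read 3.74, 3.33 and 4.0 in knockout samples, against 4.68, 4.97 and 5.27 in parental samples. Every parental array lay above every knockout array, and only knockout sample 3 among the knockout arrays was above background. The means were 3.69 ± 0.34 in knockout and 4.97 ± 0.30 in parental samples (SD, n = 3), a change of -1.28 (SE 0.19). Since knockout samples 1 and 2 were below background, no fold is given.

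**Figure D1:**
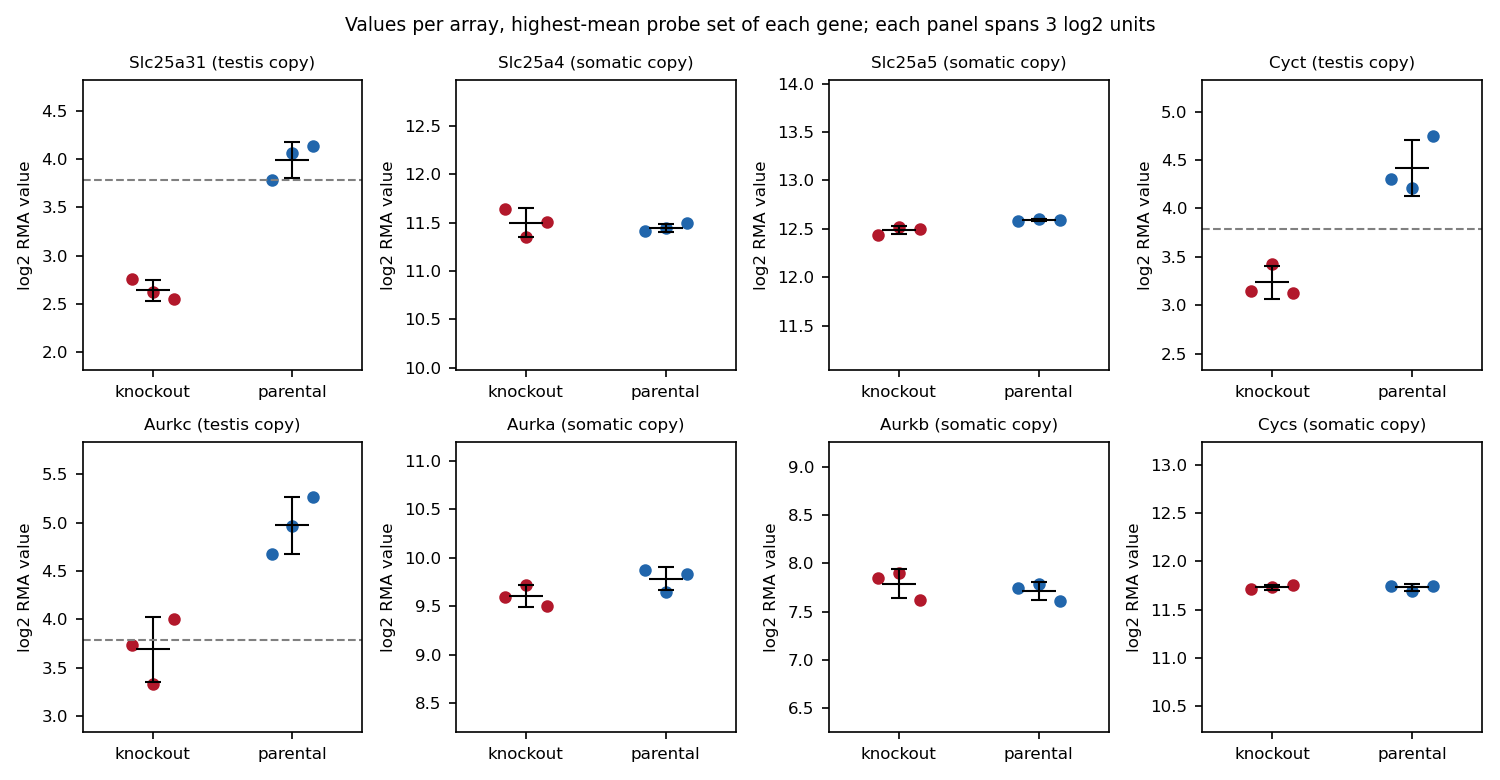
Log2 RMA values of the highest-mean probe set of each of the 8 genes, with knockout arrays left and parental arrays right; points are arrays, the black mark and bar are the mean and SD of 3 arrays, and the dashed line is the background level of 3.78. Each panel spans the same 3 log2 units, and the group means differ by more than 1 log2 unit for Slc25a31, Cyct and Aurkc.

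All 3 passed the threshold used for the whole table, a limma adjusted p under 0.05, which 0.333% of 45037 probe sets did in the lower direction, and groups without overlap in that direction were seen on 7.52%. Since this contrast chose the genes, nothing is read from those counts.

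The testis copies varied together only in part within a group. Parental sample 3 was the highest array for all 3, and parental sample 1 was the lowest for Slc25a31 and Aurkc but not for Cyct. Among knockout samples, number 2 was the highest for Cyct and the lowest for Aurkc. The mean of the 3 testis copies was 3.19 ± 0.06 in knockout and 4.46 ± 0.24 in parental samples (SD, n = 3), and that of the 5 somatic copies was 10.62 ± 0.04 in knockout and 10.65 ± 0.02 in parental samples.

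The somatic copies were bright in both groups, and 0 of their 20 probe sets passed limma's test, against 0.402% of all probe sets in either direction. None of the 20 had an unadjusted p under 0.05, which 9.49% of all probe sets had. The lowest adjusted p among the 20 was 0.552. Of the 18 that were above background in either group, 8 had positive and 9 had negative changes, 1 did not differ, and the changes ran from -0.28 to 0.12. Groups did not overlap on 3 of the 20 probe sets, all of Slc25a5, against 14.2% of all probe sets.

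Slc25a4, the ADP/ATP carrier typical of heart and muscle, read 11.64, 11.35 and 11.51 in knockout samples, against 11.41, 11.44 and 11.49 in parental samples (1424562_a_at). The knockout values lay on both sides of the parental ones. The change was 0.05 (95% confidence interval -0.15 to 0.26, limma adjusted p = 0.905). Its other bright probe sets gave 0.01 (1455069_x_at) and 0.12 (1434897_a_at), and 1424563_at was below background on all 6 arrays.

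Slc25a5, the X-linked carrier of proliferating cells, read 12.44, 12.52 and 12.50 in knockout samples, against 12.58, 12.60 and 12.59 in parental samples (1436874_x_at). The groups did not overlap, but the change was only -0.10 (95% confidence interval -0.26 to 0.06, limma adjusted p = 0.715). Of its 8 probe sets, 7 had negative changes, and the lowest was -0.15 (1430542_a_at, 95% confidence interval -0.32 to 0.01, adjusted p = 0.552). Most of its probe sets carry the x_at ending, which marks probes that can bind other transcripts, so near-identical sequences cannot be separated here.

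Cycs, the somatic cytochrome c, read 11.71, 11.73 and 11.76 in knockout samples, against 11.75, 11.69 and 11.75 in parental samples (1456071_a_at). Its change of 0.003 had a 95% confidence interval of -0.16 to 0.16 (limma adjusted p = 0.992). The other bright probe sets gave changes of 0.00 (1422483_a_at) and 0.01 (1422484_at). The last, 1445484_at, was below background on all 6 arrays.

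Aurka, the kinase of centrosomes and spindle poles, read 9.60, 9.72 and 9.5 in knockout samples, against 9.87, 9.65 and 9.83 in parental samples (1424511_at). The groups overlapped, and the change was -0.18 (95% confidence interval -0.39 to 0.04, limma adjusted p = 0.615). The other Aurka probe set, 1440129_at, lay close to background and gave -0.28 with a wide interval of -0.76 to 0.21.

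Aurkb, the kinase of the chromosomal passenger complex, read 7.85, 7.90 and 7.62 in knockout samples, against 7.74, 7.79 and 7.61 in parental samples (1451246_s_at). The change was 0.08 (95% confidence interval -0.15 to 0.30, limma adjusted p = 0.866), and 1424128_x_at gave 0.09 (adjusted p = 0.784). The point estimates of Aurka and Aurkb thus had opposite signs, neither past the threshold.

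**Figure D2:**
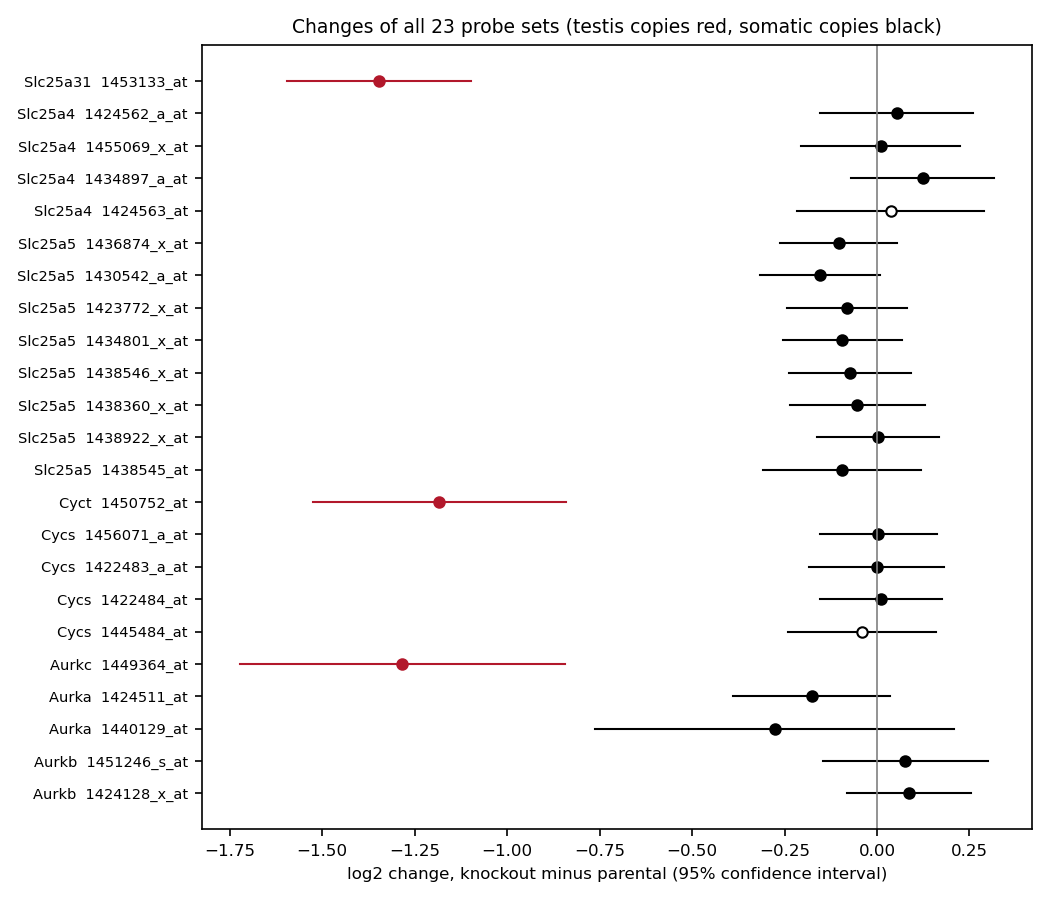
Log2 change (knockout minus parental, horizontal axis) of all 23 probe sets with 95% confidence intervals, testis copies in red and somatic copies in black; open points are probe sets at or below background in both groups. The red intervals lie between -1.72 and -0.84, and their position follows from how the testis copies were chosen. Every black interval includes 0.

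Taking the change of the testis copy minus that of its somatic copy removes only what moves both by an equal log2 amount. Whether probe sets near background and bright ones move equally was not tested. The difference in change was -1.40 for Slc25a31 against Slc25a4, -1.24 for Slc25a31 against Slc25a5 and -1.19 for Cyct against Cycs. It was -1.11 for Aurkc against Aurka and -1.36 for Aurkc against Aurkb. For Cyct against Cycs, with both genes centred on their parental means, the knockout arrays lay at -1.25, -0.99 and -1.32 and the parental arrays at -0.14, -0.17 and 0.31. For Aurkc against Aurka, the knockout arrays lay at -1.05, -1.58 and -0.69 and the parental arrays at -0.38, 0.13 and 0.25. The groups stayed apart in all 5 pairs, closest in Aurkc against Aurka. The choice of the testis copies fixes this direction, so no test is attached, and the knockout signals of Slc25a31 and Cyct lie below background.

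Other testis copies of widely expressed genes were read from a separate list. Of 33 measured members of a list of further testis paralogues, 1 fell, none rose and 32 did not pass the test of limma, a share of 3.03% called. Over all genes, 0.511% fell and 0.0934% rose. The median change of the list was -0.06, against 0.00 over all genes, with 24 below 0 and changes from -0.96 to 0.49. At an unadjusted p under 0.05, 8 were lower and 1 was higher, where 9.49% of all probe sets passed in either direction. Groups did not overlap for 10 of the 33, against 14.2% of all probe sets. On all 6 arrays, 13 of the 33 lay at or below background, among them Pgk2, the testis phosphoglycerate kinase. Taf7l, Cox7b2 and Nxf3, counted above as lower at an unadjusted p, were also among the 13, so their differences lie within background signal. Others so counted were above background on all 6 arrays: Rbmxl2 (-0.38, limma adjusted p = 0.205), Rpl39l (-0.32, 0.217) and Utp14b (-0.27, 0.476). The groups of Rbmxl2 and Rpl39l did not overlap, and those of Utp14b did. Pdha2 (-0.50, limma adjusted p = 0.390), also so counted, was above background on 1 parental array only.

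Psma8, the testis proteasome subunit, was the member that fell (1427170_at). It read 6.13, 6.43 and 6.03 in knockout samples, against 7.06, 7.15 and 7.25 in parental samples, a change of -0.96 (SE 0.11, limma adjusted p = 0.0130). The groups did not overlap and all 6 arrays were above background. The call was lost without any 1 array except knockout replicate 2 (adjusted p 0.0558 to 0.0821). Its somatic counterpart Psma7 differed by 0.05 (adjusted p = 0.894).

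Ldhc, the testis lactate dehydrogenase, differed in the opposite direction and was singled out after its values were seen. On 1415846_a_at it read 5.25, 5.16 and 5.10 in knockout samples, against 4.32, 4.52 and 4.33 in parental samples, a rise of 0.78 (limma adjusted p = 0.00911). On its other probe set, 1415847_at, it read 6.62, 6.59 and 6.45 in knockout samples, against 6.14, 6.08 and 5.96 in parental samples, and the change of 0.49 did not pass (adjusted p = 0.0651). The groups did not overlap on either. The call on 1415846_a_at was lost without knockout replicate 1 (0.0556) or parental replicate 1 (0.0660). Of the somatic copies, Ldha differed by 0.06 (adjusted p = 0.848), while the 4 probe sets of Ldhb gave -0.39 to -0.35 and none passed (lowest adjusted p = 0.171). With an intensity trend and robust prior, 1434499_a_at of Ldhb passed (limma adjusted p = 0.043).

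The somatic counterparts of those further testis paralogues had a median change of -0.01. Of 30 measured, 0 passed limma's test, although 4 were lower and 0 higher by an unadjusted p under 0.05. Over all probe sets, 9.49% had such a p in either direction. The chaperone gene Hspa8 and the poly(A)-binding protein gene Pabpc1 had differences of 0.03 (adjusted p = 0.934) and 0.02 (adjusted p = 0.970). The nucleotide synthesis gene Prps1, counterpart of the testis gene Prps1l1, was nearest to the threshold (-0.43, adjusted p = 0.0506). It passed with quantile normalization applied again (limma adjusted p = 0.0494), with an intensity trend and robust prior (0.00471) and over probe sets above background only (0.0395).

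**Figure D3:**
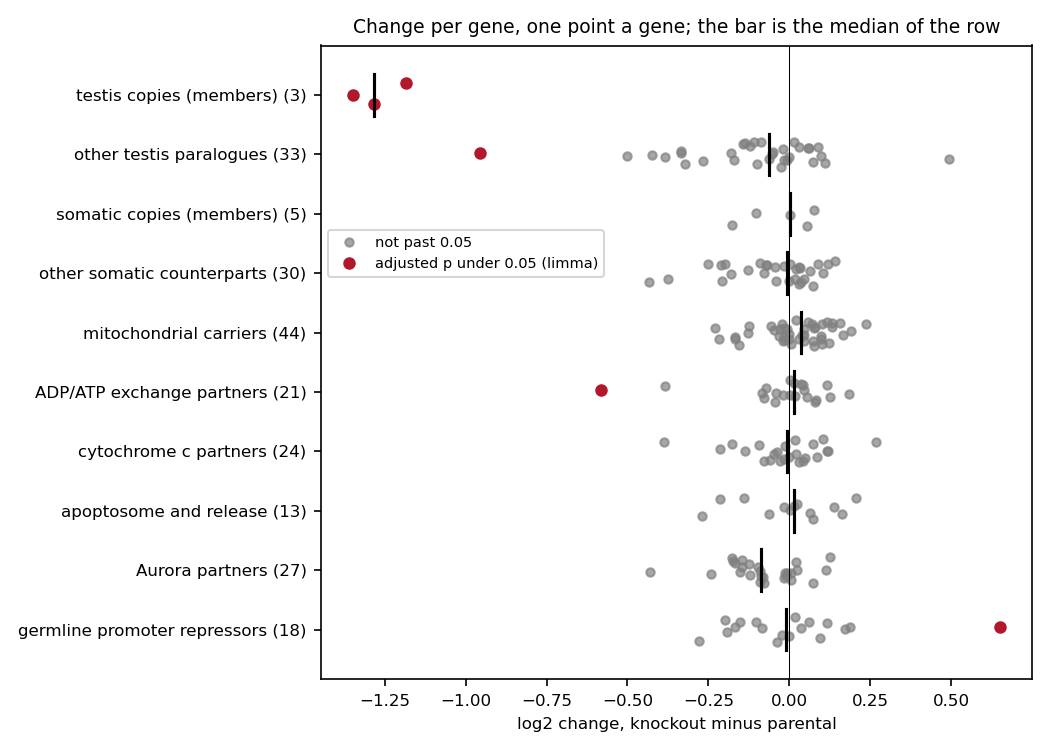
Log2 change (knockout minus parental, horizontal axis) per gene for the testis copies, the somatic copies and 8 further gene lists, with the number of genes in brackets; red points have a limma adjusted p under 0.05 and the black bar is the median of the row. Red points in the further lists are Psma8 at -0.96, Ckb at -0.58 and Dnmt3l at 0.65; the position of the 3 testis copies follows from how they were chosen.

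Few genes that work with the 3 families passed limma's test, with 3 arrays a group. Groups did not overlap for 5 of 44 other mitochondrial carriers, 6 of 21 ADP/ATP exchange partners and 11 of 24 cytochrome c partners. They did not overlap for 3 of 13 apoptosis genes and 6 of 27 Aurora partners, against 14.2% of all probe sets. An unadjusted p under 0.05 in either direction was seen on 9.49% of all probe sets. Of 44 other mitochondrial carriers, 0 passed limma's test (1 higher and 2 lower at an unadjusted p under 0.05), with a median change of 0.04 and a range of -0.23 to 0.24. The phosphate carrier gene Slc25a3 differed by 0.04 (adjusted p = 0.909) and Slc25a39 by -0.03 (adjusted p = 0.945), the last being a carrier needed for mitochondrial glutathione.

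Of 21 partners of ADP/ATP exchange, such as outer membrane channels, ATP synthase subunits and kinases, 1 fell and 20 did not pass (median 0.01). At an unadjusted p under 0.05, 2 were lower and 1 was higher. The gene that fell was Ckb, the brain-type creatine kinase, which passes phosphate from ATP to creatine. It read 8.55, 8.63 and 8.71 in knockout samples, against 9.26, 9.21 and 9.17 in parental samples, a change of -0.58 (SE 0.08, limma adjusted p = 0.0211). The groups did not overlap, but the call was lost when any 1 of the 6 arrays was left out (0.0617 to 0.116).

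Of 24 cytochrome c partners in respiration and 13 genes of the apoptosome and of cytochrome c release, 0 passed limma's test in either list. At an unadjusted p under 0.05, 1 respiratory gene was higher and 3 were lower, and 0 genes of the apoptosis list were higher and 2 were lower. The medians were -0.01 and 0.01. The complex III subunit gene Uqcrb differed by -0.04 (adjusted p = 0.916) and the complex IV subunit gene Cox5b by 0.12 (adjusted p = 0.683). The antiapoptotic gene Mcl1 differed by -0.06 (adjusted p = 0.878) and Aifm1, which encodes a mitochondrial flavoprotein, by 0.003 (adjusted p = 0.992).

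Of 27 Aurora partners, 0 passed limma's test, and 2 were lower and 0 higher at an unadjusted p under 0.05. The median was -0.09, with 20 of 27 below 0. Incenp, the scaffold that activates Aurkb and Aurkc, differed by 0.01 (adjusted p = 0.991), and the microtubule regulator gene Stmn1 by -0.09 (adjusted p = 0.766).

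Of 18 genes of complexes known to repress germline promoters, E2f6, Mga, Pcgf6 and the DNA methyltransferases among them, 1 rose and 17 did not pass. That is a share of 5.56% called, where 0.0934% of all genes rose and 0.511% fell. At an unadjusted p under 0.05, 2 were higher and 1 was lower, where 9.49% of all probe sets passed in either direction. Groups did not overlap for 2 of the 18, against 14.2% of all probe sets. The gene that rose was Dnmt3l, which assists the de novo DNA methyltransferases (0.65, limma adjusted p = 0.0318). Its call was kept without knockout replicate 3 but lost without any other array (0.0782 to 0.147). The call was on 1425035_s_at, and without x_at and s_at probe sets 0 of 14 list genes passed.

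The values of each testis copy over the 6 arrays were set against those of 13374 genes above background, each centred on its own mean, and likeness was measured as the root mean square difference in log2 units. Nearest to Slc25a31 were Rasip1 (0.06), a Ras-interacting protein gene of blood vessels, Ttpa (0.10), which encodes the vitamin E transfer protein, and Stk31 (0.12), a germ cell gene. Nearest to Cyct were the germ cell genes Rnf17 (0.14) and Tex19.1 (0.15), followed by Prrc1 (0.17). Nearest to Aurkc were the mitotic checkpoint ubiquitin ligase gene Chfr (0.19), Clca3b (0.21) and Stk31 (0.24). Slc25a31 and Cyct differed from each other by 0.20, Slc25a31 and Aurkc by 0.23, and Cyct and Aurkc by 0.31. Slc25a31 differed from Slc25a4 by 0.71 and from Slc25a5 by 0.64, and Cyct from Cycs by 0.62. Aurkc differed from Aurka by 0.64 and from Aurkb by 0.76. The testis copies were chosen by their step between the groups, which fixes this order, so nothing is read from it. The measure follows mainly the step between the groups, which the testis copies and their nearest genes share, and says nothing of shared control.

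**Figure D4:**
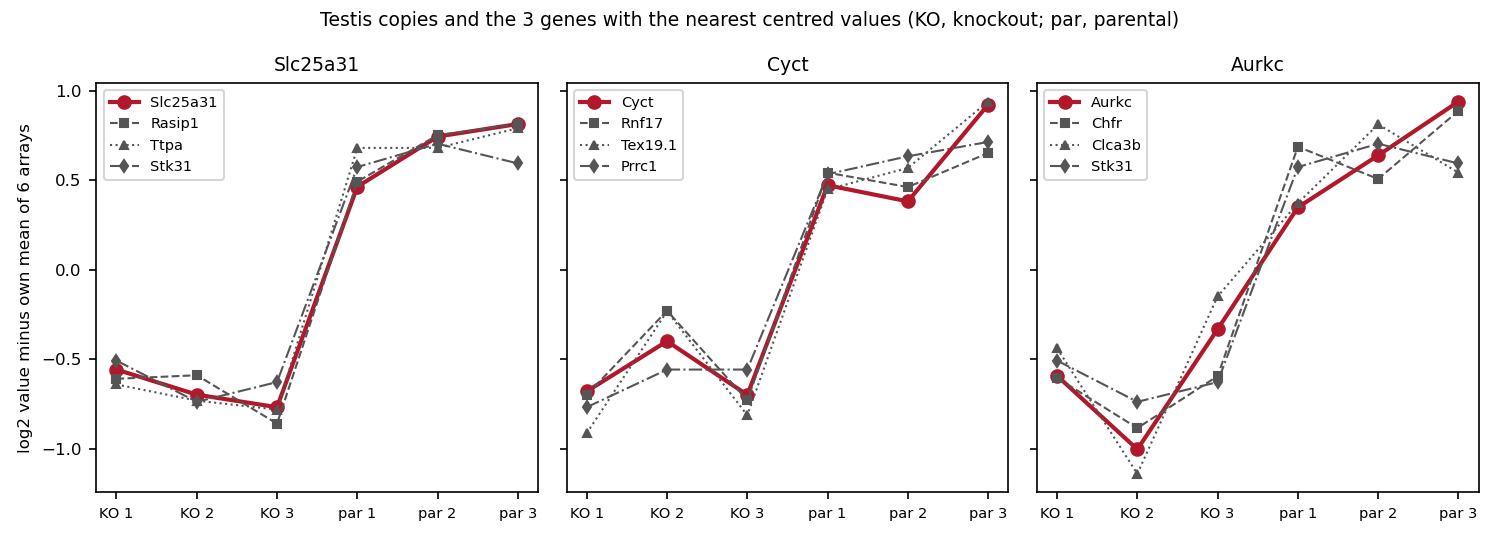
Log2 values of each testis copy (red) and its 3 nearest genes (grey) minus the own mean of each gene, over knockout arrays 1 to 3 (KO) and parental arrays 1 to 3 (par); lines only join the values of a gene. In each panel the 4 genes lie below their mean on all knockout arrays and above it on all parental arrays.

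The 14 ES cell markers were all above background, with a list mean per array of 10.46 to 10.51 in knockout and 10.53 to 10.60 in parental samples. Of these, 9 had changes below 0, with a median of -0.07, and 0 passed limma's test (3 lower and 0 higher by an unadjusted p under 0.05). Over all probe sets, 9.49% had such a p in either direction. Groups did not overlap for 7 of the 14, against 14.2% of all probe sets. Among these 7 was Nanog, a pluripotency factor gene with the largest change of the list (-0.49, limma adjusted p = 0.122). The 2 most abundant markers, Pou5f1 (-0.06, adjusted p = 0.852) and Dppa5a (0.08, adjusted p = 0.781), were also among them. The 19 measured feeder fibroblast markers averaged 10.17 to 10.36 in knockout and 10.11 to 10.22 in parental samples, with 16 changes above 0, a median of 0.10 and 0 past limma's test (2 higher and 0 lower by an unadjusted p under 0.05). All 19 were above background. The part of the ES cell markers and of the feeder share in the lower testis copies was not tested. Of 22 markers of spermatocytes and spermatids, 13 were at or below background on all 6 arrays, Tnp1, Tnp2, Acrv1 and Odf1 among them. The other 9 were above background in either group. The 2 most abundant, Prm1 and Tcp11, were above it on all 6 arrays and differed by 0.06 and 0.08. The list averaged 3.61 to 3.75 in knockout and 3.67 to 3.68 in parental samples. Of the 22, 0 passed limma's test (2 higher and 0 lower by an unadjusted p under 0.05).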

How the data were processed

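Biotin-labelled total RNA of 6 samples was run on Affymetrix arrays, per the labels' protocols. The authors deposited log2 values normalised by RMA, per the submitters' processing notes; its software, version and settings are not stated in the labels, and log2 was read from the values. RMA gives arrays a shared distribution (medians 4.21 to 4.25), so a shift of most transcripts would not be visible. Of 45101 probe sets, 64 controls were left out. The comparison used the limma package (version 3.58.1, R 4.3.3; lmFit, eBayes, no covariate, two-sided), with Benjamini-Hochberg adjustment over 45037 probe sets and a threshold of 0.05; this fit gave all adjusted p-values. In lists, a gene is its probe set with the highest mean among those with exactly 1 gene.

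A bound ("at least N-fold") divides the brighter group's mean by the dimmer group's, after raising each dimmer value to the background level. The number of arrays limits the precision. Members, lists and motifs were chosen with earlier results of these data known. Named from each list were up to 4 genes past the threshold with the largest changes, or otherwise the 2 most abundant. For each testis copy, the 3 nearest genes were named. Ldhc, Nanog, Ldha, Ldhb, Psma7, Prps1, Rbmxl2, Rpl39l, Utp14b, Pdha2 and list members given as examples were named after their values were seen. No 2 arrays were identical. The fit was tested on simulated data. Alternatives were other scalings, a replicate block, other priors, filters on dim or shared probe sets, gene means and leaving out each array; the closing section gives their effect.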

Additional observations from a re-analysis of the deposited data

How the results depend on the processing

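The precision is limited by 3 arrays a group and by signals of the testis copies near background. Of all probe sets, 181 passed, against 88 with the replicate block, 312 with an intensity trend and robust prior, 1 with a fit without moderation and 70 to 112 without 1 array. The 3 calls of testis copies became 0 without moderation and 1 to 2 without 1 array; with the replicate block the call of Cyct was lost and those of Slc25a31 and Aurkc were kept. Slc25a31 alone passed without knockout replicate 1, knockout replicate 3 or parental replicate 1, and Slc25a31 and Cyct without any 1 of the others. As this contrast chose the genes, these calls support nothing. The 3 calls among 208 list genes became 0 with the replicate block (adjusted p of 0.0636 for Psma8, 0.148 for Ckb and 0.122 for Dnmt3l, and 0.0636 for Ldhc on 1415846_a_at), 0 without moderation, 0 to 1 without 1 array and 5 with probe sets averaged per gene, which added Ldhc and Prps1. Arrays of equal replicate number were not paired by their deviations from the group means (correlations of 0.112, -0.364 and -0.287). The highest correlations were between unequal numbers (0.379 and 0.371). The block joins arrays by replicate number alone, and whether such arrays share anything else is not known. No somatic copy was called under any alternative run, and no change of a testis copy turned sign. The 5 testis minus somatic changes stayed within the spread between arrays under both scalings and with gene means. Without 1 array they ran from -1.49 to -1.35 (Slc25a31 against Slc25a4), -1.34 to -1.17 (against Slc25a5), -1.29 to -1.03 (Cyct), -1.31 to -0.87 (Aurkc against Aurka) and -1.60 to -1.13 (against Aurkb). Changes near 0 turned sign when quantile normalization was applied again, to -0.007 for Cycs (1456071_a_at) and -0.001 for Aifm1. Without 1 array, changes near 0 also turned sign. They ran from -0.017 to 0.128, -0.075 to 0.085 and -0.022 to 0.148 for Slc25a4 (1424562_a_at, 1455069_x_at and 1424563_at), from -0.028 to 0.022 for Slc25a5 (1438922_x_at), and from -0.017 to 0.015 and -0.025 to 0.030 for Cycs (1456071_a_at and 1422484_at). For list genes they ran from -0.068 to 0.012 (Slc25a39), -0.052 to 0.033 (Aifm1), -0.123 to 0.002 (Mcl1), -0.087 to 0.068 (Incenp) and -0.020 to 0.040 (Pabpc1).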
